A study of Mus musculus with 9 samples.

Results

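The genes described here are the voltage-gated calcium and sodium channels, taken as every gene symbol of the insertion table that starts with Cacna, Cacnb or Cacng, or with Scn followed by a digit. This rule gave 40 of the 22353 symbols. They comprise 10 pore-forming calcium channel genes (Cacna1), 4 alpha2delta genes (Cacna2d), 4 beta genes (Cacnb), 8 gamma genes (Cacng), 10 pore-forming sodium channel genes and 4 sodium channel beta genes.

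Voltage-gated calcium channels open when a membrane depolarises and let calcium enter, which drives transmitter release, gene expression and pacemaking in neurons. The pore subunit sets the current type, and the alpha2delta and beta subunits control how many channels reach the membrane. Several gamma proteins act instead as TARPs, which carry AMPA-type glutamate receptors to the synapse. Voltage-gated sodium channels carry the rising phase of the action potential, and their beta subunits tune gating and cell adhesion. Cerebellar granule neurons, the lineage of SHH medulloblastoma, use many of these channels as they mature.

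The tumours were SHH medulloblastomas of mice that carry the Lazy Piggy element, a transposon with a Sleeping Beauty (SB) and a piggyBac (PB) part. The animals compared were 72 with tamoxifen (TAM+ in the sample sheet, 4 to 249 days listed) and 47 without (TAM-). Every animal carries Lazy Piggy, and the sheet lists chromosome 10 as the local (donor) chromosome of the element in 90 animals and chromosome 7 in 29. The sources used here give no strain, age, tumour-predisposing allele or driver of the transposases, and do not say what tamoxifen acts on. Libraries called IR were amplified from the SB ends, JX from the SB and PB boundary and PB from the PB ends. The 9 sequenced samples are lanes, and each pools the libraries of many animals. Median counts per animal with tamoxifen and without were 3115243 and 3143569 for IR libraries, 441808 and 287429 for JX, and 204964 and 216967 for PB. Single PB totals went down to 1714 with tamoxifen and 6650 without. The animal is the replicate, a bulk tumour can hold several clones, and a count is not a molecule, as the table holds no molecular identifiers. Positions are in mm9, and no sequence is shown because no genome of that build was used here.

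A group of libraries did not match its labels. Each library was set against the IR sites credited to each animal, within 500 bp. In lane 4, 0 of 16 left-end JX libraries had the largest part of these counts at IR sites of their own animal, and all 16 had it at those of another animal of the lane. Of these libraries, 14 formed 7 reciprocal pairs of animals. Their share at their own animal's IR sites was 0.00176% to 0.740%, with a median of 0.00948%. The right-end JX libraries of the same animals had a median of 90.8%, and 15 of 16 matched their own animal best. In the other lanes 98 of 103 left-end JX libraries did so. Some libraries of the other ends also matched another animal best. Of 119 each, these were 3 left-end and 6 right-end IR, 3 right-end JX, and 5 left-end and 13 right-end PB libraries. Some came from tumours with channel sites described below. The IR sites were called from the IR libraries themselves, so the match of IR libraries is no separate check of their labels. All libraries are kept unless stated. Many of the counts that change without the left-end JX libraries of lane 4 are given beside the results, but not all.

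A site is called here when its count reached both 10 and 1% of the tallest site in that animal's libraries of the same kind. Each called site is credited to 1 animal, the one whose counts it makes up the largest share of. A position is termed shared where at least 3 animals list it and none holds over 50% of its counts. Channel genes held 37 called sites in 19 tumours, and 17 of the 40 genes had at least 1. Sites were counted per kind of library, so IR, JX and PB sites at or near 1 position count apart. Without the left-end JX libraries of lane 4 there were 38 sites in 18 tumours and again 17 genes. Called sites were found in 5 channel genes in IR (12.5%, against 6.35% of all genes), in 12 in JX (30%, against 16.4%) and in 7 in PB (17.5%, against 7.83%). The median channel gene, like the median gene of the table, had 0 animals in each kind of library. The mean number of animals per gene was 0.175 for channels and 0.0774 for all genes in IR. The JX mean was 0.475 for channels, beside 0.224, and the PB mean 0.25, beside 0.0969.

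Channel genes also collected more positions of any count than most genes. The median channel gene had 50 listed IR positions, against 19 for all genes. Channel genes held 0.385% of the IR positions listed for genes and 0.378% of the called IR sites with a gene. For JX these shares were 0.413% and 0.362%, and for PB 0.386% and 0.455%. Among genes with 100 to 299 listed IR positions, called IR sites were found in 1 of 8 channel genes and 30.9% of all genes. Called JX sites were found in 6 of the 8 and 59.9%, and called PB sites in 2 of the 8 and 35.9%. The shares of channel genes thus lay on both sides of those of genes with as many positions. Among genes with 30 to 99 positions they were 15.8% by IR, beside 9.48%, 21.1% by JX, beside 27.2%, and 10.5% by PB, beside 11.7%. The 23 channel genes with no called site were not unmarked. Cacna1a, whose product is the pore of the P/Q-type channel of Purkinje and granule cells, had 167 listed IR positions in 50 tumours with tamoxifen and 33 without, and 0 called sites of any kind. Cacng2, which encodes the TARP stargazin of cerebellar granule cells, had 106 in 41 and 22. Cacna1b, the pore gene of the N-type channel of nerve terminals, had 97 in 38 and 21. Of the T-type pore genes, Cacna1h had 66 in 27 and 18, Cacna1i 59 in 31 and 15, and Cacna1g 31 in 21 and 8. Scn2b was lowest, with 3 positions in 3 and 2 tumours.

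**Figure D1:**
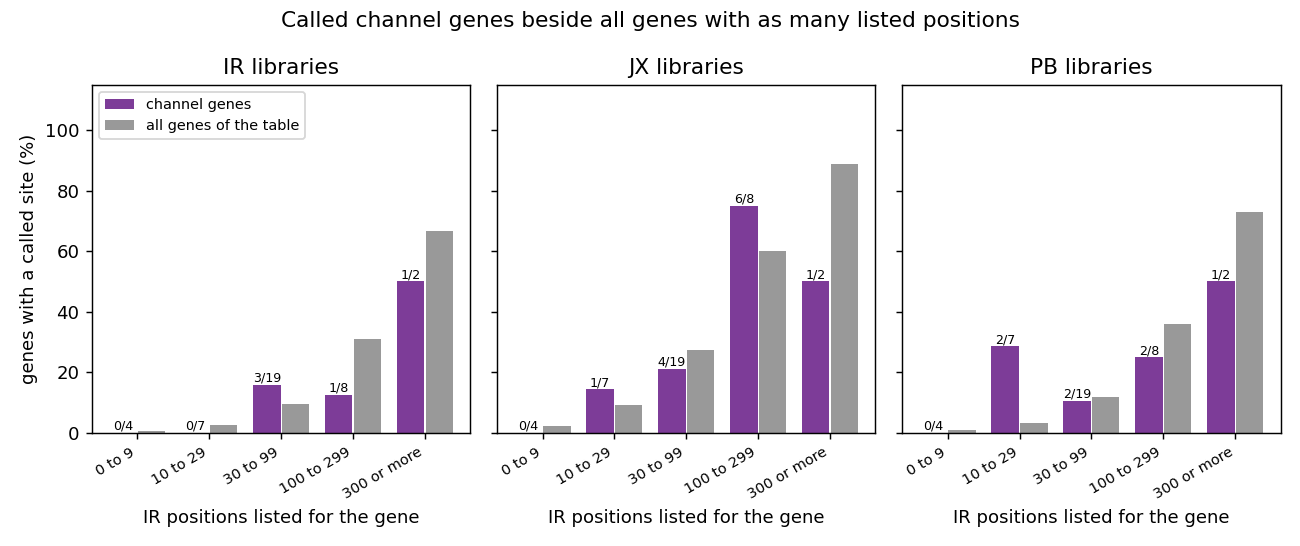
Percent of genes with a called site (y axis) by the number of IR positions listed for the gene (x axis), for the channel genes (purple, with counts above the bars) and all genes of the table (grey), in each kind of library. With 100 to 299 positions, 1 of 8 channel genes was called in IR and 6 of 8 in JX.

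The series was made to find genes that maintain SHH medulloblastoma, and the design sets tumours with tamoxifen against those without. In IR, 4 of 72 tumours with tamoxifen (5.56%, 95% exact interval 1.53% to 13.6%) and 2 of 47 without (4.26%, 0.520% to 14.5%) carried a called channel site. In JX these were 8 (11.1%, 4.92% to 20.7%) and 5 (10.6%, 3.55% to 23.1%), and in PB 6 (8.33%, 3.12% to 17.3%) and 2 (4.26%, 0.520% to 14.5%). Over all kinds 13 tumours with tamoxifen (18.1%) and 6 without (12.8%) had one. Without the left-end JX libraries of lane 4 these were 13 (18.1%, 9.98% to 28.9%) and 5 (10.6%, 3.55% to 23.1%), since tumour 14, numbered as below, then had no called channel site. The intervals of the arms overlapped in each kind, and the differences were small beside them: 1.30 percentage points in IR (95% interval -9.25 to 9.76), 0.473 in JX (-12.6 to 11.6) and 4.08 in PB (-6.86 to 13.3). Without lane 4 they were larger, 5.97 points in IR (4 of 67 and 0 of 36 tumours), 6.38 in JX (8 and 2) and 8.96 in PB (6 and 0). Weighted over lanes by the Mantel-Haenszel method, with all lanes kept, they were 2.74, 5.67 and 5.08. As a share of all called sites, channel sites made up 0.325% with tamoxifen and 0.259% without in IR, while JX gave 0.274% and 0.292% and PB gave 0.399% and 0.331%.

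Over all kinds of library, 15 of the 40 channel genes were called in tumours with tamoxifen (15.6% of all genes) and 4 in those without (8.3% of all genes). The 4 were Cacna1e, Cacna1d, Cacna2d1 and Scn8a, and Cacna2d3 joined them without the left-end JX libraries of lane 4. The arms differ in size, with 7928 called sites with tamoxifen and 4071 without, and the difference between these counts of genes was not tested. Fisher's exact test was run on genes called in at least 3 animals, which were 0.179% of all genes by IR libraries, 1.09% by JX and 0.246% by PB. Among channels these were Cacna1e and Cacng3 in JX and Cacna1e in PB. After adjustment no gene of the table was past 0.05 by this test, which is 0% of 40 genes tested for IR, 0% of 244 for JX and 0% of 55 for PB. At an unadjusted p under 0.05 that test gave 0, 2 and 1 genes, none of them a channel gene. A gene called in 3 animals cannot fall below an exact p of 0.0592 with these arms.

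**Figure D2:**
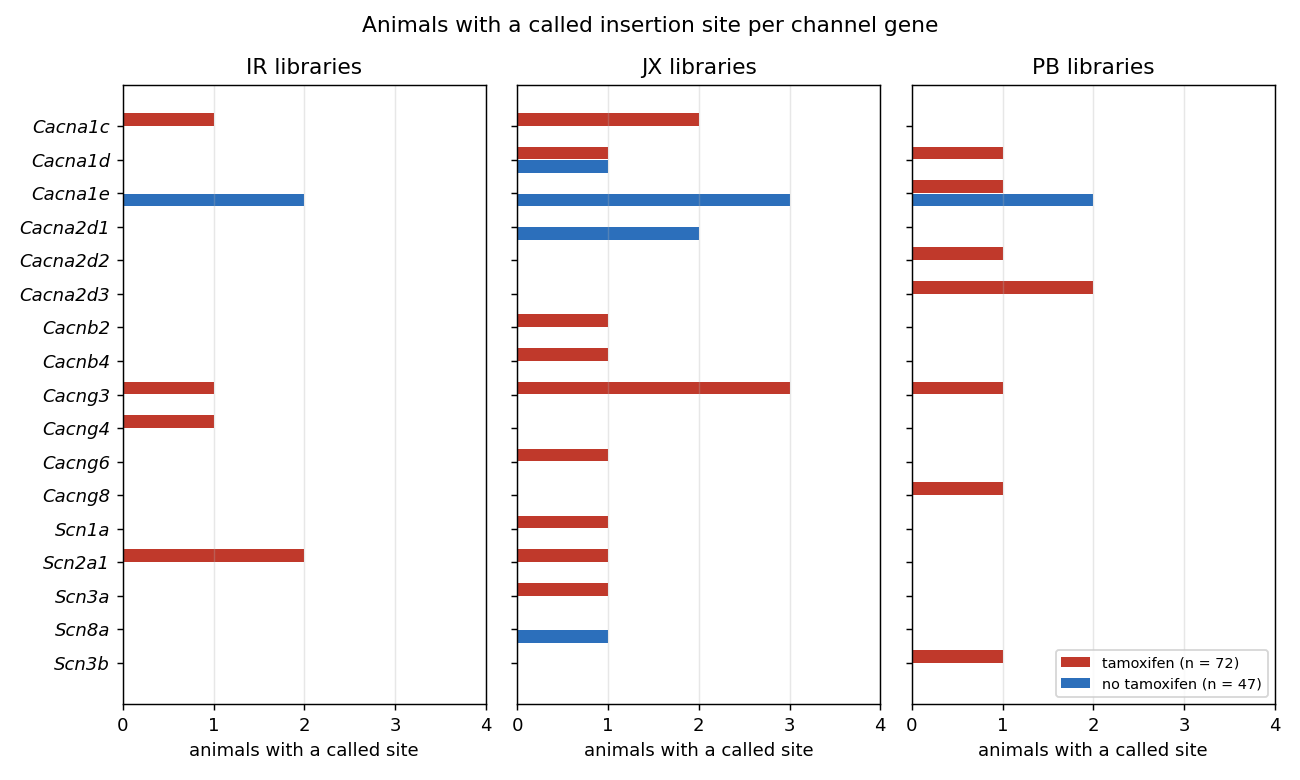
Number of animals (x axis) with a called site in each of the 17 channel genes that had one (y axis, ordered by class), with tamoxifen (red, n = 72) and without (blue, n = 47), in each kind of library. All libraries are kept. Cacna1e reached 3 untreated animals in JX and Cacng3 3 animals with tamoxifen.

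Cacna1e, on chromosome 1, encodes the pore of the R-type calcium channel, which contributes to transmitter release and dendritic calcium entry. It was the channel gene with the most called sites, 9 in all, with the kinds of library counted apart. The 9 sites lay at 7 positions, and some PB sites were 91 to 192 bp from an IR site of the same tumour. The number is therefore not one of separate insertions. Cacna1e was called in IR in 0 tumours with tamoxifen and 2 without, in JX in 0 and 3, and in PB in 1 and 2. Fisher's exact test gave p 0.0592 in JX (6.38% of untreated animals, adjusted p 1) and p 0.561 in PB (adjusted p 1), and IR was not tested. Over the 3 kinds it was called in 1 tumour with tamoxifen and 4 without. Without the left-end JX libraries of lane 4 these numbers were 1 and 3.

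The strongest insertion of the family lay in intron 3 of Cacna1e at position 156520177, in an untreated tumour numbered 17 here (the 19 tumours with called channel sites are numbered 1 to 13 with tamoxifen and 14 to 19 without). It had 248876 IR counts, 6.26% of the tumour's IR counts and 45.2% of its highest IR site. It ranked 3 of the 27 IR sites called in that tumour and lay in the opposite orientation to the gene. Both transposon ends read that base, with 90188 counts at the left end and 158641 at the right. The same position was listed in 15 other animals, with 1994 counts in the next, an untreated tumour of lane 4, 63 in tumour 16, 18 in another and at most 7 in the rest. Of all 16 animals listing it, 15 were in lane 4, so the IR signal of other animals at this position was low and nearly all of the same lane.

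The PB libraries of tumour 17 carried called sites on both sides of this position. One lay 110 bp below it, at 156520067, with 6215 counts at the right end and 1 at the left. The other lay 192 bp above it, at 156520369, with 3500 counts at the left end and 8 at the right. The JX count at the intron 3 position was divided between animals by end. Tumour 17 had 2366 JX counts there, 2362 of them at the right end and 4 at the left. Tumour 14, an untreated tumour of the same lane with 7 IR counts at the position, had 2609 JX counts, all at the left end. The left-end JX library labelled as tumour 14 had 68.1% of its counts near IR sites at the sites of tumour 17, and that labelled as tumour 17 had 98.8% at those of tumour 14. With all libraries kept, the JX site was credited to tumour 14, at 1.91% of its highest JX site. Without the left-end JX libraries of lane 4 it was called in tumour 17, with 2362 counts, 82.2% of its highest JX site. The number of untreated animals with a called JX site in Cacna1e was 3 in both cases. Without these libraries the channel JX sites numbered 20 in 13 genes, 9 of them at positions shared over animals, and the added gene was Cacna2d3. The other channel JX sites credited to lane 4 animals stayed called, with 174 counts for Cacna1e in tumour 15, 442 for Cacna2d1 in tumour 15, and 49 for Cacna1d and 53 for Scn8a in tumour 16.

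A second untreated tumour, number 15, had a called IR site in intron 7 at 156376012, in the orientation of the gene. It had 32668 counts, 0.877% of the tumour's IR counts and 5.24% of its highest site. The left end gave 911 counts and the right end 31757. The next animal had 12 counts there. Its JX libraries had 175 counts at the same base, 174 of them at the right end, and its PB libraries 2564 counts at 156375921, 91 bp away. An animal with tamoxifen in lane 4 had 125 JX counts at the same base, 118 at the left end, and no called site there. The left-end JX library labelled as tumour 15 likewise matched another animal best.

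Another untreated tumour, number 18 in lane 7, had a called JX site in the same intron at 156382642, 1384 counts and 8.25% of its highest JX site, with 0 IR and 0 PB counts of its own within 500 bp. In lane 7 an animal with tamoxifen had 11 IR counts at that base. The only called Cacna1e site with tamoxifen was a PB site of tumour 9 at 156653581, 80.531 kb upstream of the gene, with 686 counts (5.61% of the highest site) and 0 IR or JX counts within 500 bp. All called sites inside the gene were thus in untreated tumours. Of the 4 tumours credited with them 3 were in lane 4, where 11 of 16 animals were untreated. Leaving out lane 4, Cacna1e was called in JX in 0 tumours with tamoxifen and 1 without, and in PB in 1 and 0. Asking that the animal hold over 60% of a JX position, its JX calls were also in 0 and 1. The lane 4 calls lost there, in tumours 14 and 15, were at positions where the animal held 52.0% and 56.8% of the counts. Without the left-end JX libraries of lane 4, tumours 17 and 15 held 98.9% and 93.0%, and the same rule left JX calls in 0 tumours with tamoxifen and 3 without. An exact test with arms permuted within lanes gave p 0.256 for Cacna1e in JX (adjusted p 1), against the 0.0592 of the pooled test, with a weighted difference of -4.84 points.

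Below the call, Cacna1e was listed in both arms. IR libraries listed 234 positions in 62 tumours with tamoxifen and 37 without, with a median of 4 counts. The highest IR count at a single base was 516 with tamoxifen, against 248584 without. JX libraries listed 50 positions in 30 and 20 tumours, and PB libraries 78 in 19 and 10.

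**Figure D3:**
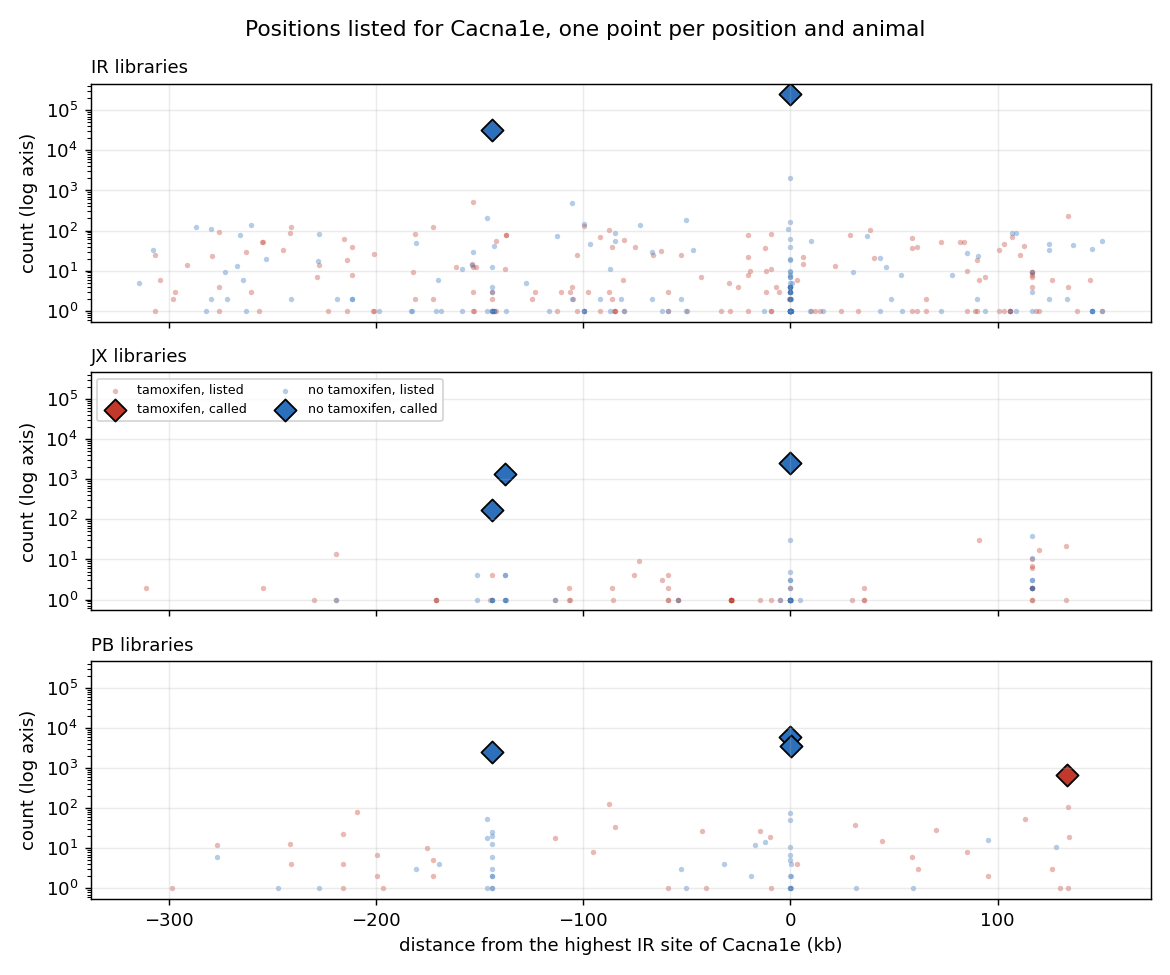
Counts (y axis, log) of every listed Cacna1e position and animal against its distance from the highest IR site (x axis, kb), with tamoxifen (red) and without (blue), with called sites as diamonds. The called sites at the highest site (intron 3) and in intron 7 are untreated, and the called site with tamoxifen is the PB site outside the gene.

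The other pore-forming calcium channel genes with called sites were Cacna1c and Cacna1d, which encode L-type pores that couple depolarisation to gene expression and to pacemaking. Cacna1c was called only with tamoxifen. Its IR site in intron 1, at 119048631 of chromosome 6, had 592 counts (3.16% of the highest site, all at the left end) in tumour 7 and 0 JX or PB counts of that tumour within 500 bp. Its JX sites lay 18.803 kb apart in intron 3, at 118823261 in tumour 1 with 135 counts and at 118842064 in tumour 7 with 32. The site of tumour 1 was the one with counts of other kinds, 611 IR counts and 518 PB counts within 100 bp.

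Cacna1d, on chromosome 14, was called in JX in 1 tumour with tamoxifen and 1 without, and in PB in 1 with tamoxifen and 0 without. Both JX positions were shared over animals. The one in intron 8 at 30974672 was listed in 34 animals, none with over 8.21% of its counts, and the one in intron 9 at 30943765 in 82 animals, none with over 5.22%. The PB site in intron 20 had 33 counts in tumour 3. The remaining 7 Cacna1 genes (Cacna1a, Cacna1b, Cacna1f, Cacna1g, Cacna1h, Cacna1i and Cacna1s) had no called site in either arm.

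Of the alpha2delta genes, Cacna2d1, Cacna2d2 and Cacna2d3 were called and Cacna2d4 was not. Cacna2d1, which encodes the main gabapentin-binding subunit, had called JX sites in 0 tumours with tamoxifen and 2 without. The site in intron 3 at 15568008 of chromosome 5 had 442 counts in tumour 15 (8.69% of its highest JX site), beside 469 IR counts and 112 PB counts of its own within 500 bp. Tumour 15 thus carried sites in 2 calcium channel genes, Cacna1e and Cacna2d1. The second Cacna2d1 position, in intron 6 at 15741971, was listed in 59 animals, none with over 7.22% of its counts. Cacna2d3 was the channel gene with the most listed IR positions, 431, and had called PB sites in 2 tumours with tamoxifen and 0 without. One, in intron 2 at 30478294 of chromosome 14, had 11083 counts in tumour 10 (2.97% of its highest PB site, all at the right end) but 0 IR or JX counts of that tumour within 500 bp. The other had 31 counts in tumour 4. Cacna2d3 also had a called JX site of 39 counts in the untreated tumour 17 without the left-end JX libraries of lane 4. This JX position was shared over animals. Cacna2d2 had a PB site of 24 counts in tumour 3.

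Of the beta genes, which encode cytoplasmic subunits that bring the pore to the membrane, Cacnb2 and Cacnb4 had 1 JX site each, both with tamoxifen. The Cacnb4 site in intron 2 at 52477146 of chromosome 2 had 58 counts in tumour 1, with 92 IR and 46 PB counts within 100 bp, and was listed in no other animal. The Cacnb2 position, at 14662442 of the same chromosome, was listed in 54 animals, and tumour 8 held the largest part, 8.37%. Cacnb1 and Cacnb3 had none.

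Of the 8 gamma genes 4 had called sites, in 6 tumours with tamoxifen and 0 without. Over all kinds of library, 15.6% of all genes were called with tamoxifen and 8.3% without. The arms differ in size, and the gamma genes were not tested as a class. Cacng3, a TARP of forebrain AMPA receptors on chromosome 7, was called in IR in 1 tumour with tamoxifen and 0 without, in JX in 3 and 0 (Fisher's exact test, p 0.277, adjusted p 1), and in PB in 1 and 0. All kinds of library met in tumour 13, at 129846641 in intron 1, in the orientation of the gene. This site had 5269 IR counts (1.40% of the highest site) with 5182 at the left end and 87 at the right, and 489 JX counts (8.57%) with 198 and 291. A PB site of 173 counts lay 247 bp away. The next animal had 1 IR count and 2 JX counts at the position. The sheet lists chromosome 7 as the donor of tumour 13, so this site lay on the donor chromosome. The other JX sites were weaker, with 40 counts in tumour 1 at 129889474 and 42 in tumour 7 at 129909914, a position listed in 15 animals.

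Cacng4, another TARP, had an IR site of 8689 counts in intron 1 at 107610012 of chromosome 11 in tumour 5 (1.96% of the highest site), with 763 JX and 241 PB counts within 100 bp. This site and that of tumour 13 were the intragenic IR calls with tamoxifen that had JX and PB counts of the same tumour within 500 bp. Cacng6 had a JX site of 90 counts 11.591 kb downstream in tumour 2, and Cacng8, a TARP of hippocampal receptors, a PB site of 20 counts 23.357 kb upstream in tumour 3. Cacng1, Cacng2 (stargazin), Cacng5 and Cacng7 had no called site.

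The sodium channel pore genes were called in 5 tumours with tamoxifen and 1 without, and the beta genes in 1 and 0. Scn2a1, which encodes a sodium channel pore of axon initial segments, was called in IR in 2 tumours with tamoxifen and 0 without. One site lay 41.638 kb downstream at 65647142 of chromosome 2, with 13613 counts in tumour 11 (2.98% of the highest site), 2403 JX counts within 100 bp and 1759 PB counts within 500 bp. The other lay in intron 15 at 65554494 with 344 counts in tumour 7 and 0 JX or PB counts within 500 bp. Its JX position, 50.596 kb downstream, was called in 6 animals and listed in 71, none with over 5.99% of its counts.

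Scn1a and Scn3a, further brain sodium channel pores, had 1 JX site each with tamoxifen, of 29 and 75 counts, at positions whose highest animal held 20.5% and 39.7% of the counts. Scn8a, which supports repetitive firing of Purkinje cells, had the single exonic site of the family, a JX site of 53 counts in exon 9 at 100803209 of chromosome 15 in the untreated tumour 16, all at the right end. Scn3b, a beta subunit gene, had a PB site of 149 counts in intron 1 in tumour 7, which was 10.9% of the highest PB site of a library with 17069 counts.

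**Figure D4:**
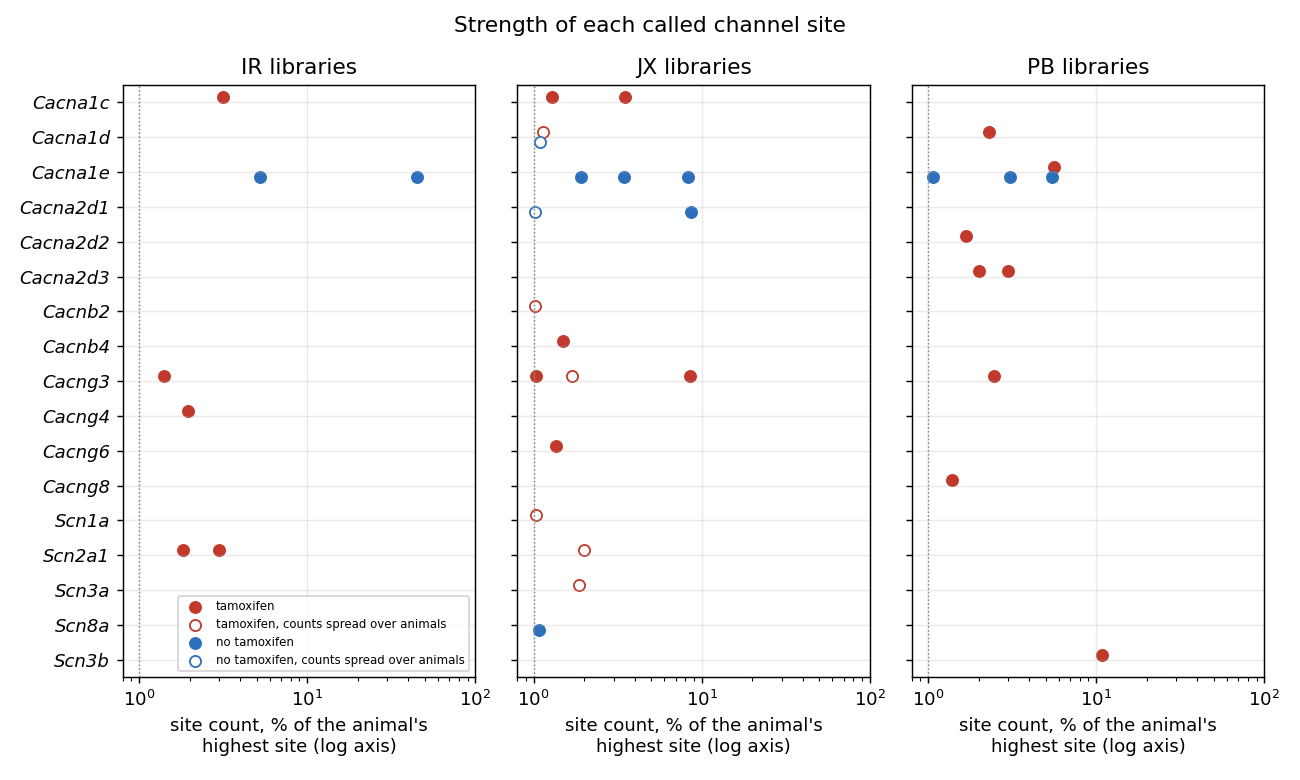
Count of each called channel site as a percent of the highest site of its animal and kind of library (x axis, log, dotted line at the 1% call), by gene (y axis), with tamoxifen (red) and without (blue). Open circles mark positions shared over animals. All libraries are kept. The Cacna1e site at 45.2% stands apart from the other IR sites, which lie at 5.24% or below.

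Most called channel sites were below 10% of the highest site of their tumour. The median IR site had 2.98% of the count of the highest site, against 4.21% for all called IR sites with a gene, the median JX site 1.51% against 1.94%, and the median PB site 2.48% against 2.27%. Over 10% was reached by 1 of 7 channel sites in IR (36.5% of all), 0 of 19 in JX (13.8%) and 1 of 11 in PB (19.5%). Leaving out the left-end JX libraries of lane 4, it was reached by 1 of 20 in JX (13.6%), the Cacna1e site of tumour 17 at 82.2%, and the median JX channel site had 1.43%, against 1.88%. At least 10 counts at each transposon end were found for 5 of the 7 IR sites, 3 of the 19 JX sites and 0 of the 11 PB sites.

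Channel sites lay mostly in introns. In IR 6 of 7 sites were intronic (58.4% of all sites with a gene), in JX 15 of 19 (54.3%) and in PB 9 of 11 (58.9%). The JX libraries gave 1 exonic site, and without the left-end libraries of lane 4 16 of 20 JX sites were intronic (54.3%). Inside gene bodies, the orientation was that of the gene at 2 of 6 IR sites (49.6% of all), 8 of 16 JX sites (52.9%) and 3 of 9 PB sites (47.6%). The authors' table marks 6 of 6, 15 of 16 and 9 of 9 of these as disrupting the coding sequence, against 82.4%, 82.8% and 80.7% of all. For JX, leaving out those libraries gave 9 of 17 in the orientation of the gene and 16 of 17 as disrupting. With these small numbers no test was made.

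Many of the JX calls lay at shared positions. Of the JX channel sites 8 of 19 (42.1%) were of this kind, against 46.0% of all called JX sites, while 0 of 7 IR and 0 of 11 PB channel sites were. Without the left-end libraries of lane 4 the JX share was 45%, against 46.2%. These were both Cacna1d positions, 1 of 2 in Cacna2d1, 1 of 3 in Cacng3, and the JX sites of Cacnb2, Scn1a, Scn2a1 and Scn3a. Only 1 of the 8 had at least 10 own IR counts within 100 bp, against 6 of all 19. Both Cacna1d positions and the Cacnb2 position were also called in JX libraries of control DNA, with 10 to 20 counts. Of 9 control DNAs 3 had called channel sites in JX, 14 of 7335 called JX sites. These were counted in each DNA that reached the call, so 1 position could count in several DNAs. Only 2 of the 14 had their largest share in the DNA itself. They are thus not counted like the 19 JX sites, which are credited to 1 animal each. The 5 control tumours had 0 channel sites among 631 IR, 1227 JX and 97 PB sites called. Without shared positions, called JX sites were found in 7 channel genes, and the share of all genes under this filter is not given here. They lay in 4 of 72 tumours with tamoxifen (5.56%) and 4 of 47 without (8.51%).

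The 37 sites, with the kinds of library counted apart, were concentrated in a few tumours. The 3 sites of tumour 13, for example, all lay within 247 bp of 1 Cacng3 position. Sites in more than 1 channel gene were found in 6 tumours, which held 20 of the 37. With the left-end JX libraries of lane 4 left out, these were 7 tumours with 25 of the 38 sites. Tumour 7 had 5 sites in 4 genes, and it had the most called IR sites of all animals, 334. It also had the lowest IR total of all animals compared, 295999 counts. Its IR channel sites, in Cacna1c and Scn2a1, were called with 592 and 344 counts. Tumour 1, with 3 sites, had the most called JX sites, 689. Tumours with a called channel site in IR had a median of 23.5 called IR sites, against 12 in the others. For JX the same medians were 160 against 20 JX sites (151 against 28 without the left-end libraries of lane 4), and for PB 74.5 against 11 PB sites. A tumour with more called sites is more likely to have one in any list of genes. The direction of these differences is therefore not particular to channels, and the part of site number in channel hits was not tested. Tumours 3, 4 and 7, which had 5 of the 11 PB sites, had shallow PB libraries of 10515, 11387 and 17069 counts, so that the 1% call was reached with 20 to 149 counts.

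**Figure D5:**
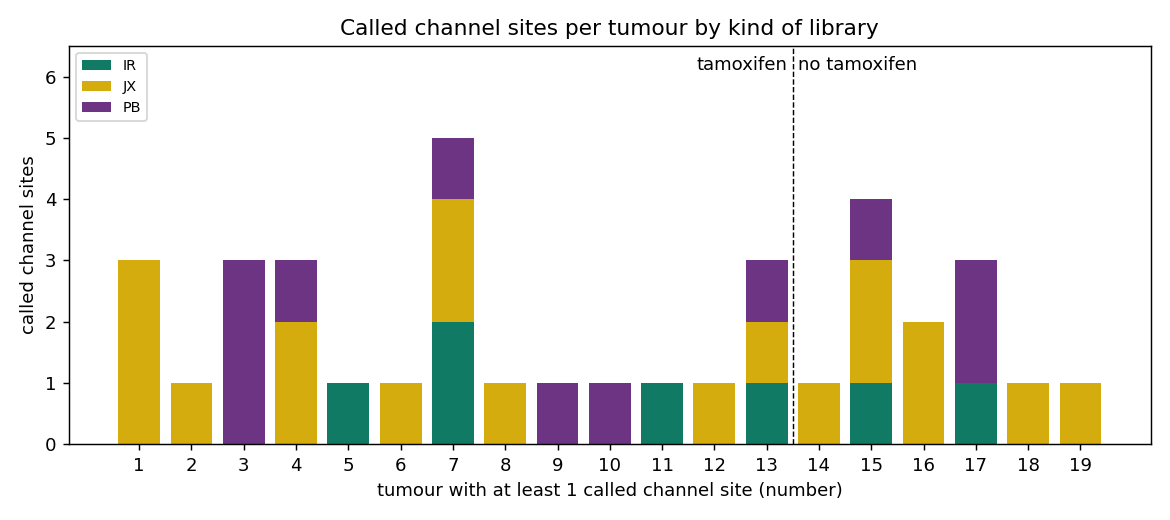
Called channel sites (y axis) in each of the 19 tumours that had one (x axis), by kind of library, with tamoxifen left of the dashed line and without right of it. All libraries are kept. Tumour 7 has 5 sites and tumour 15 has 4.

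Hits were uneven over lanes and donors. In lane 4, 0 of 5 tumours with tamoxifen and 4 of 11 without had a called channel site, or 3 of 11 without its left-end JX libraries. In the other lanes each lane had 0 to 3 tumours with tamoxifen and 0 or 1 without. Among animals with donor chromosome 7, 5 of 19 tumours with tamoxifen (26.3%) and 3 of 10 without (30%) had a called channel site. Among those with donor chromosome 10 these were 8 of 53 (15.1%) and 3 of 37 (8.11%), or 2 of 37 (5.41%) without the left-end JX libraries of lane 4. Of the members 5 lie on chromosome 7 and 0 on chromosome 10, and 4 of the 37 sites lay on the donor chromosome of their animal, 3 in Cacng3 and 1 in Cacng8. Lane, donor and arm were not balanced. No channel gene was past an adjusted p of 0.05 when the exact test was stratified by lane or by donor chromosome. These tests covered 0 channel genes for IR, 2 for JX and 1 for PB. Weighted over donor groups, the differences in percent of tumours hit were 0.711 points in IR, 0.0460 in JX and 3.38 in PB.

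A list of 55 channel-associated and intracellular calcium genes, such as ryanodine and IP3 receptors, calcium pumps and ankyrins, was followed beside the channels. Of them 7 were called in IR libraries (12.7%), 24 in JX (43.6%) and 10 in PB (18.2%). The shares were 12.5%, 30% and 17.5% for the channel genes and 6.35%, 16.4% and 7.83% for all genes. Genes with as many listed positions were not compared here, and some of the JX sites were at shared positions. None of the 55 genes passed Fisher's exact test after adjustment, and the tests covered 1 of these genes by IR, 1 by JX and 0 by PB. Atp2b1, a plasma membrane calcium pump, had called IR sites in 2 tumours with tamoxifen and 1 without (exact p 1, adjusted p 1). It was also called in JX in 2 and 0 tumours, and 2 of its JX sites were at shared positions. Fgf14, whose product binds sodium channels at the axon initial segment, had called JX sites in 1 and 3 (exact p 0.299, adjusted p 1), and 3 of its JX sites were at shared positions.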

How the data were processed

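Insertion positions were read from splinkerette libraries of sheared and BamHI-cut tumour DNA, amplified from the SB part (IR), the PB part (PB) or their boundary (JX), per the labels' protocols. The authors deposited raw counts per position and library, on build mm9 (per the submitters' processing notes). Which aligner, counting rule, annotation and filters were used is not stated there. Arm, animal, lane, donor chromosome and days came from the authors' sample sheet. Counts were added over both transposon ends and any repeat lane, and 1 ID spelled in 2 ways was joined. The 5 control tumours, the control DNAs and 8 animals of no usable arm were only described.

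Neighbouring positions up to 10 bp apart on either strand formed a site. Calls needed 10 counts and 1% of the animal's tallest site, and each called site went to the animal where its share was highest. Genes called in at least 3 animals were tested with two-sided Fisher's exact tests (scipy 1.17.1) and Benjamini-Hochberg adjustment over all genes of a kind of library, after a trial on simulated data. Exact tests stratified by lane or donor were added after seeing the data. Members, classes and the associated genes were chosen with earlier results of these data known. Named genes were members called in at least 2 animals of a kind, those with the 3 highest shares per kind, those with neighbouring IR and JX or PB sites, and associated genes called in at least 3 animals. The other members named were chosen after their values were seen. Intervals of shares are exact binomial (Clopper-Pearson, 95%), those of differences Newcombe's, and both cover counting error only. Of the 40 symbols, 39 were current in GRCm38.p6 and Scn2a1 matched through a synonym. Values of some single genes are not reported here.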

Additional observations from a re-analysis of the deposited data

Results flagged for a closer look

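Of the 8 animals with no usable arm label, 1 in JX and 1 in PB had called channel sites with a larger share of counts than in control DNA and control tumours. In the PB libraries of 1 animal, a site downstream of Cacna2d1 at 15922790 of chromosome 5 had 104 counts, 0.586% of the animal's PB counts, and a site in intron 2 of Cacna1h at 25557368 of chromosome 17 had 13 counts, 0.0733%. Control libraries had no called PB site in channel genes, but they had few called PB sites at all, 97 in control tumours and 52 in control DNA. A JX site in intron 8 of Cacna1d at 30974672 had 57 counts, 0.0277% of JX counts, against 0.0176% in the highest control DNA. On the measure used for calling it was lower than in control DNA, 1.71% of the highest site against 2.04% and 1.83%. That position was listed in 43 animals and controls. These animals entered no comparison.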

How the results depend on the processing

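No channel gene was past the adjusted threshold in the exact tests of any kind of library under the 16 alternatives, the stratified tests included. Few could pass, since few were called in enough animals to be tested. At 5% and in either donor group alone 0 channel genes were tested. IR libraries had 0 to test under every alternative but 0.1%. There the tests covered 7 channel genes for IR, 11 for JX and 10 for PB. Elsewhere they covered at most 5 for JX and 1 for PB. These results therefore do not show stability over the settings. Alternatives without lane 4, stratified by lane or donor chromosome, without the animal with the most IR sites, per donor chromosome, with over 60% of a JX position held by the animal, and without the left JX libraries of lane 4 were chosen after seeing the data. The number of channel genes with called sites was 26 (IR), 28 (JX) and 23 (PB) at 0.1% of the highest site and 1, 3 and 2 at 5%. It was 4 in PB at a minimum count of 50, 7 in JX without shared positions and 7 in JX with over 60% held. In donor chromosome 10 animals alone it was 3 in IR and 3 in PB, and in donor chromosome 7 animals 3 in IR and 7 in JX, where fewer animals enter. The shares of all genes under these alternatives are not given here. These counts therefore do not show whether channel genes were called more or less often than other genes. The percent of animals with a channel site, with minus without tamoxifen, was 1.30 points for IR, 0.473 for JX and 4.08 for PB; it changed sign under several alternatives. Without lane 4 it was 5.97 (4 of 67 against 0 of 36 tumours), 6.38 and 8.96 points, and stratified by lane it was 2.74, 5.67 and 5.08. In JX it was -0.148 at 0.1%, -2.87 at 5%, -2.30 at a minimum count of 50, -2.96 without shared positions, -4.52 with every animal credited, -2.30 in gene bodies, -0.916 without the donor chromosome, -0.779 without the animal with the most IR sites, -4.21 in donor 7 animals and -2.22 with over 60% held. In IR it was -4.26 at 5%, -0.0887 in gene bodies, -0.0887 without the donor chromosome, -0.0300 without that animal and -9.47 in donor 7 animals. In PB it was -4.96 at 0.1% and -4.21 in donor 7 animals. For Cacna1e in PB the difference was -2.87 points, and 1.30 at 0.1%, 1.49 without lane 4 and 1.89 in donor 10 animals. The cause was not tested. The JX difference of Cacna1e was negative under all alternatives, with adjusted p 0.858 to 1 where it was tested. With JX calls in 0 tumours with tamoxifen, alternatives that only drop calls could not turn it positive. It rested on 0 against 1 tumours at 5%, without lane 4, in donor 7 animals and with over 60% held. At 0.1%, which admits more sites, the calls were in 2 with tamoxifen and 4 without. Channel calls of under 50 counts in shallow PB libraries are limited by depth. The labels pair no animals across arms. Stratifying by lane or donor chromosome used the sample sheet and moved no gene past the threshold, and the Cacna1e exact p in JX was 0.256 by lane and 0.0573 by donor.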
